A study of Mus musculus with 6 samples.

Results

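The 8 genes described here encode subunits of the BAF chromatin remodelling complex in the form found in embryonic stem cells, often called esBAF. They were chosen by name: Smarca4, Smarcb1, Smarcc1, Smarcd1, Smarce1, Arid1a, Actl6a and Dpf2. All 8 had a row among the 12331 genes measured. All libraries were made from RNA of E14tg2a cells, a mouse line of embryonic stem cells grown with LIF, the cytokine that keeps such cells undifferentiated. In the tagmentation group, 3 libraries were made by cutting and tagging amplified cDNA in one reaction with hyperactive Tn5 transposase. Each used 100 ng of cDNA, ran for 5 min at 55 °C and was amplified by 13 cycles of PCR. In the sonication group, 3 libraries were made by shearing the amplified cDNA with sound and ligating adaptors. Both groups shared the cell line, the 10 pg of kit-prepared total RNA per reaction that the protocol gives (about the content of a single cell), oligo(dT) priming and 20 cycles of cDNA amplification. The sample descriptions name a lysate of a single cell instead, so whether the numbers are portions of one RNA or separate cells is not settled by the labels. They call the replicates, numbered 1 to 3 in each group, technical, so a p-value here says nothing of separate cultures. In a fit with method alone it reflects the spread between libraries of a method. With the number also in the fit, it reflects how far the method difference varies between numbers.

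The BAF complex, the mammalian SWI/SNF complex, uses the energy of ATP to slide and evict nucleosomes and so opens DNA at enhancers and promoters. Each complex is built around an ATPase, a core of scaffold subunits, a large ARID protein and accessory subunits that read histones or bind actin-like partners. Many positions can be filled by either of several related proteins, and stem cells are known to favour Smarca4, Smarcc1, Arid1a, Actl6a and Dpf2 over their paralogues. Loss of Smarca4, Smarcb1, Smarcc1 or Arid1a is lethal to the early mouse embryo.

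Depth was 21007424 to 34681566 alignments in the tagmentation libraries and 18852822 to 30296557 in the sonication libraries. Across the 6327 tested genes, the Pearson correlation between a tagmentation and a sonication library was 0.958 to 0.977 where the number matched and 0.482 to 0.705 where it did not. Between libraries of one method it was 0.453 to 0.704 among the tagmentation and 0.549 to 0.723 among the sonication libraries. Of 8 stem cell markers fixed for this check (Pou5f1, Sox2, Nanog, Zfp42, Dppa5a, Esrrb, Utf1 and Tdgf1), 7 or 8 reached 1 RPKM in each library. Nanog was listed at 0 in the number 3 pair. Of 8 fibroblast markers 5 had a row. Their summed level was 2.52 to 9.55 RPKM after tagmentation and 2.54 to 12.1 RPKM after sonication, and 1 reached 1 RPKM in each library. That marker was Thy1 in numbers 1 and 2 and Twist2 in number 3, in both methods. Dab2 was the single row among 6 endoderm markers and reached 1 RPKM in both libraries of number 1 (9.29 RPKM after tagmentation and 5.54 RPKM after sonication) but in no other. Of 8 neural markers 6 had a row, and 1 to 3 of these reached 1 RPKM. Their summed level was 14.6 to 51.1 RPKM after tagmentation and 33.9 to 47.9 RPKM after sonication, most of it from Tubb3, a tubulin of neurons, which had 13.6 to 49.95 RPKM after tagmentation and 31.1 to 46.6 RPKM after sonication. If the RNA came from many cells, which the labels do not settle, fewer cells of a type and less RNA per cell cannot be told apart. The part of these markers in the results below was not tested.

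Smarca4 (also called Brg1) encodes the ATPase that drives the complex. It had 20.6, 32.0 and 29.5 RPKM (reads scaled to gene length and library depth) in tagmentation libraries 1 to 3, against 39.5, 33.3 and 26.9 RPKM in sonication libraries 1 to 3. The groups overlapped, and both the highest and the lowest value belonged to number 1. Smarca4 had the steadiest level of the 8 genes: averaged over both methods, its numbers lay between 28.2 and 32.7 RPKM, a ratio of 1.16. In number 1 this average joins the lowest and the highest value, 20.6 and 39.5 RPKM, so it hides a wider spread between single libraries.

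Smarcb1 (Snf5) encodes a core subunit that touches the nucleosome and is a tumour suppressor in childhood rhabdoid tumours. It had 38.8, 22.8 and 214 RPKM in tagmentation libraries 1 to 3, against 60.0, 25.7 and 192 RPKM in sonication libraries 1 to 3. Both libraries of number 3 stood far above the other 4, and the methods overlapped. The mean of number 3 was 8.38 times that of number 2.

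Smarcc1 (BAF155) encodes the scaffold subunit on which the core is assembled. It had 11.6, 0.469 and 0.0457 RPKM in tagmentation libraries 1 to 3, against 8.06, 0.569 and 0.0187 RPKM in sonication libraries 1 to 3. With the gene length of 5673 bases recovered from the steps of the values, these were 1377, 92 and 9 reads after tagmentation and 1386, 71 and 2 reads after sonication. The exact 95% Poisson intervals in number 3 were 4.12 to 17.1 reads after tagmentation and 0.242 to 7.22 reads after sonication. Such intervals cover counting error only, since PCR copies are not independent molecules. Smarcc1 was thus well sampled in both libraries of number 1 and close to absent in both of number 3, although all came from the same cell line. It was the one member under the filter of 1 RPKM in at least 3 libraries, and was therefore left out of the tests across genes.

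Smarcd1 (BAF60a) encodes a core subunit that links the complex to transcription factors. It had 11.7, 22.4 and 7.10 RPKM in tagmentation libraries 1 to 3, against 16.6, 21.6 and 6.29 RPKM in sonication libraries 1 to 3. The order of the numbers was the same in both methods, with number 2 highest and number 3 lowest. Smarce1 (BAF57), an HMG-box subunit that binds DNA, had 3.49, 1.61 and 3.97 RPKM in tagmentation libraries 1 to 3, against 5.26, 2.49 and 4.56 RPKM in sonication libraries 1 to 3. It rested on 163 to 402 reads after tagmentation and 160 to 465 after sonication. Number 2 was lowest in both methods. RefSeq lists a Smarce1 pseudogene, with which reads could be shared, so its level is less certain.

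Arid1a (BAF250a) encodes the large ARID subunit that marks the canonical BAF complex and sets it apart from the other assemblies. It had 8.54, 5.25 and 41.2 RPKM in tagmentation libraries 1 to 3, against 6.84, 4.88 and 24.6 RPKM in sonication libraries 1 to 3. Both libraries of number 3 were the highest of their method, as with Smarcb1. Its recovered gene length of 8175 bases was the longest of the 6 members for which a length was found, so that even its lowest level rested on 877 reads.

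Actl6a (BAF53a) encodes an actin-like subunit of dividing cells that BAF shares with the INO80 and TIP60 complexes. It had 165, 218 and 57.5 RPKM in tagmentation libraries 1 to 3, against 115, 135 and 23.3 RPKM in sonication libraries 1 to 3. Within each number the tagmentation library was the higher, and number 3 was lowest in both methods. Dpf2 (BAF45d), a PHD finger subunit that reads modified histones, had 17.6, 12.6 and 32.3 RPKM in tagmentation libraries 1 to 3, against 22.6, 11.6 and 24.5 RPKM in sonication libraries 1 to 3. Its number 3 was the highest in both methods and its number 2 the lowest.

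**Figure D1:**
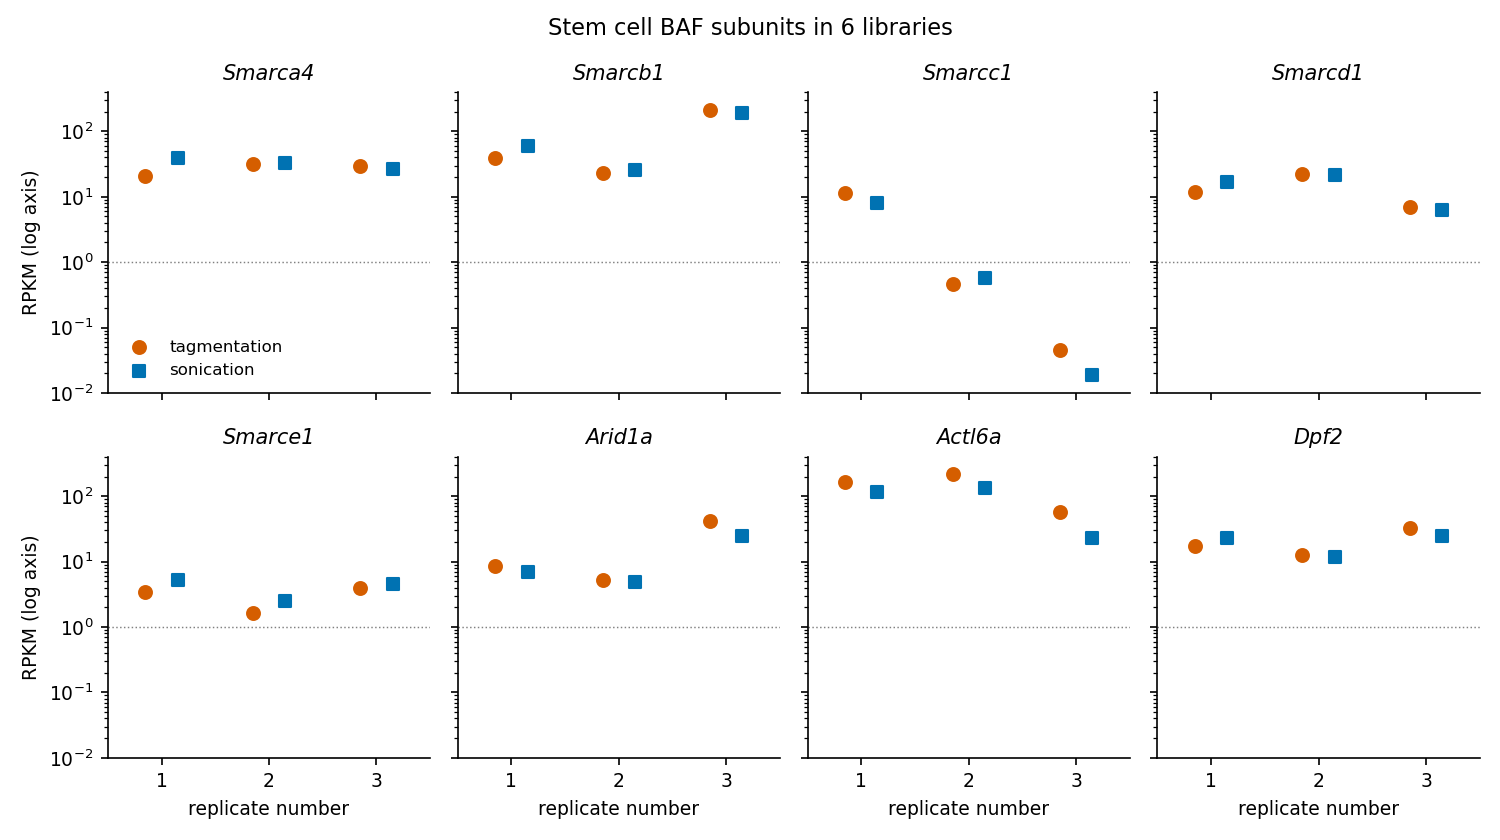
RPKM (log axis) of the 8 stem cell BAF subunits by replicate number, with tagmentation libraries as circles on the left and sonication libraries as squares on the right of each number; the dotted line is 1 RPKM. Paired symbols lie close together, while Smarcc1 goes down to 0.0457 RPKM after tagmentation and 0.0187 RPKM after sonication in number 3, and Smarca4 stays between 20.6 and 39.5 RPKM.

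RPKM is scaled by gene length, so levels can be set beside each other, within a limit. How the authors shared reads between transcripts is not stated, and 451 values of the whole table lay above 0 but under 1e-04 RPKM, less than a read could give, so a level or a listed 0 may be an estimate and not a plain count. No member had such a value. By the mean of all 6 libraries (± SD, n = 6) the order was Actl6a (119 ± 70.9 RPKM), Smarcb1 (92.3 ± 87.3), Smarca4 (30.3 ± 6.39), Dpf2 (20.2 ± 7.85), Arid1a (15.2 ± 14.7), Smarcd1 (14.3 ± 7.03), Smarce1 (3.57 ± 1.34) and Smarcc1 (3.45 ± 5.05). The 6 libraries come in pairs of the same number and are not independent, so the SDs and the counts of libraries are descriptions only. Smarcd1 and Smarce1 were the single pair of neighbours in this order whose ranges did not overlap, with Smarcd1 the higher in 6 of 6 libraries. Actl6a exceeded Smarcb1 in 4 of 6 libraries, those of numbers 1 and 2, while Smarcb1 was the higher in both of number 3. Arid1a exceeded Smarcd1 in 2 of 6. Within a library the highest member was 47.3, 465 and 4685 times the lowest in tagmentation libraries 1 to 3, and 21.8, 237 and 10288 times the lowest in sonication libraries 1 to 3. In numbers 2 and 3 the lowest was Smarcc1, and in number 1 it was Smarce1. The median member stood at 14.7, 17.5 and 30.9 RPKM after tagmentation and 19.6, 16.6 and 23.9 RPKM after sonication. The median of all genes at 1 RPKM or more was 14.0, 17.2 and 15.7 RPKM after tagmentation and 14.6, 12.6 and 8.99 RPKM after sonication. The median member includes Smarcc1, which was under 1 RPKM in numbers 2 and 3, so these medians are not taken at like thresholds.

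The series asked how library preparation by tagmentation compares with sonication. No member was called: 0 of the 7 tested members passed limma's test at a Benjamini-Hochberg adjusted p under 0.05, against 0% of all 6327 tested genes. At an unadjusted p under 0.05 there were 0 members and 18 genes in all (0.284%). Actl6a had the largest fold change of the 7, a log2 fold change (tagmentation over sonication, on log2(RPKM + 1), here and below) of 0.83 with an SE of 0.75 and an adjusted p of 1.00 (limma). Next were Arid1a with 0.36 (SE 1.17) and Smarce1 with -0.35 (SE 1.04). Smarca4 had -0.28 (SE 0.64), Smarcb1 -0.21 (SE 0.93), Smarcd1 -0.090 (SE 0.99) and Dpf2 0.049 (SE 0.81). The median of the 7 was -0.090, with 3 above and 4 below 0, and that of all tested genes was 0.028. These SEs are wide because they hold the spread between numbers: the 95% interval for Actl6a ran from -0.85 to 2.50 and that for Smarca4 from -1.71 to 1.15. The lack of a call does not show that the methods gave equal levels.

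Blocking on the number, so that methods are compared within it, limma again called 0 of the 7 members, while 3.29% of all tested genes (208) were called. That gene count was 0 with median-ratio scaling or without the filter, and 1051 without number 1, 10 without number 2 and 19 without number 3. Actl6a came nearest, with the same log2 fold change of 0.83, an SE of 0.30, a 95% interval of 0.24 to 1.41 and an adjusted p of 0.101. The interval is not adjusted for the number of genes. At an unadjusted p under 0.05 in this limma fit there was 1 of the 7 members, against 16.8% of all tested genes. Actl6a was higher after tagmentation in 3 of 3 numbers, by 0.52, 0.69 and 1.27. In numbers 1 to 3, 32.7%, 15.2% and 9.96% of all tested genes differed at least as much in either direction. The call was sensitive to number 1: without it the adjusted p was 0.0140 (log2 fold change 0.98), while without number 2 or 3 it was 0.999 and 0.925. Under 7 other scaling, pseudocount, filter and trend settings with the block, added after the values were seen, Actl6a was called in 1, quantile normalization (0.64, adjusted p 0.0271), which called 476 genes in all. In the other 6 its adjusted p was 0.0846 to 0.698. The 95% intervals with the block were -0.86 to 0.30 for Smarca4, -0.79 to 0.38 for Smarcb1, -0.66 to 0.48 for Smarcd1, -0.90 to 0.20 for Smarce1, -0.21 to 0.93 for Arid1a and -0.53 to 0.63 for Dpf2. The blocked fit carried 210 prior degrees of freedom, so these intervals rest on the pooled spread of genes at similar levels far more than on the gene itself.

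In 3 members the direction was the same in 3 of 3 numbers: Actl6a and Arid1a were higher and Smarce1 was lower after tagmentation. Of all tested genes, 33.8% had the same direction in all 3. Arid1a differed by 0.28, 0.089 and 0.72 and Smarce1 by -0.48, -0.42 and -0.16 in numbers 1 to 3. The widest single gap of Smarca4 was that in number 1, -0.91, which 6.40% of tested genes matched or exceeded. Its differences in numbers 2 and 3 were -0.059 and 0.13. In all 7 tested members the value was highest in number 3. The median difference of all tested genes also lay higher there, at -0.072, 0.079 and 0.20 in numbers 1 to 3. The libraries of the methods overlapped in every member, and did not overlap in 2.4% of all tested genes.

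**Figure D2:**
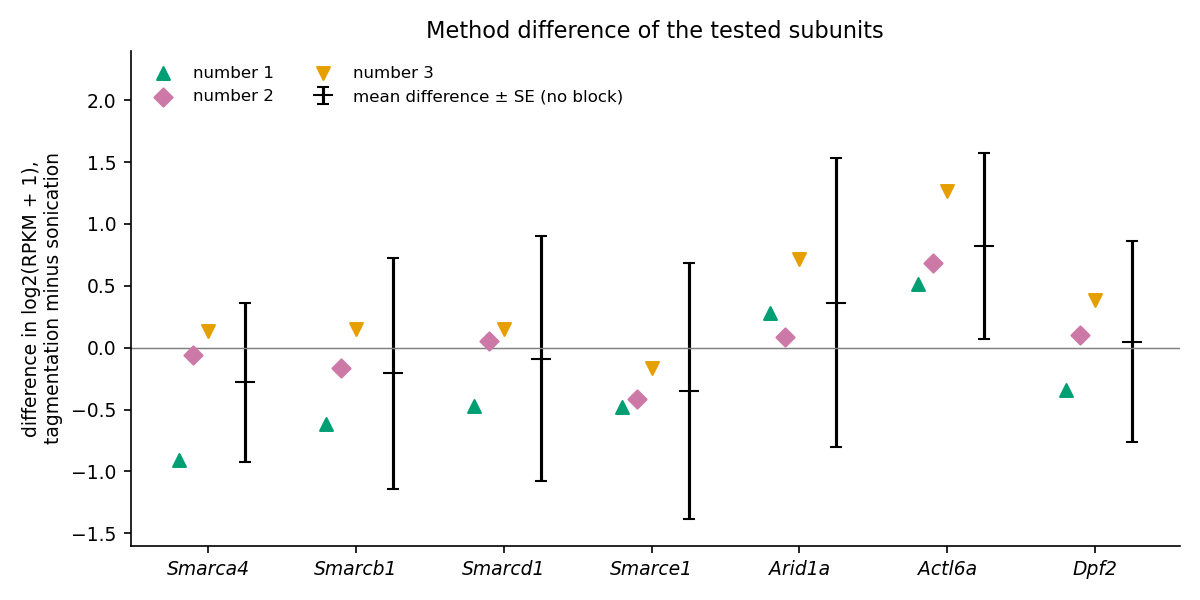
Difference in log2(RPKM + 1), tagmentation minus sonication, for the 7 tested subunits: symbols show replicate numbers 1 to 3, and the black bar shows the mean with the SE of the fit without the block. The 3 symbols of Actl6a lie above 0 (0.52, 0.69 and 1.27), those of Smarce1 lie below 0, and number 3 is the highest symbol of each gene.

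Most members differed between replicate numbers, as did most genes. With method in the fit, limma's F-test called 6 of 7 tested members as different between numbers (adjusted p under 0.05), where 88.1% of all tested genes were called, so the members' share is near the background. Smarcb1 had the lowest adjusted p (1.11e-13), followed by Arid1a (1.21e-10), Actl6a (8.49e-09), Smarcd1 (9.59e-05), Dpf2 (0.00730) and Smarce1 (0.0304). Smarca4 was the member not called (adjusted p 0.828). Smarcc1, which entered the fit when no filter was used, was then called with an adjusted p of 0.00196, while Smarce1 was not (0.0596). In that fit 67.0% of genes were called. Its F-test gave adjusted p-values of 0.00315 for Smarcb1, 0.00406 for Arid1a and 0.00639 for Actl6a. The size of these p-values thus depends on the setting: with a pseudocount of 0.1 the F-test gave 3.86e-05 for Smarcb1. Without number 3 limma called 2 members, Smarcb1 and Smarce1. Without number 2 it called 3, Smarcb1, Arid1a and Actl6a, and without number 1 it called 6. The share of all tested genes called was then 69.9%, 60.9% and 72.0%. With 1 library per method in each number, the error of this test is how far the method difference varies between numbers, moderated by the spread of other genes. The fit carried 210 prior degrees of freedom. Same-numbered libraries are not independent, so these p-values do not measure the spread between repeated preparations of a number.

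The numbers did not move the subunits together. Number 3 was the highest for Smarcb1, Arid1a and Dpf2, number 2 for Smarcd1, Actl6a and, by a small margin, Smarca4, and number 1 for Smarcc1 and Smarce1. On log2(RPKM + 1), the highest number mean exceeded the lowest by 3.37 for Smarcc1, 3.02 for Smarcb1, 2.44 for Arid1a, 2.19 for Actl6a, 1.58 for Smarcd1, 1.15 for Dpf2, 0.81 for Smarce1 and 0.21 for Smarca4. A range of 2 or more (4-fold) was seen in 3 of 7 tested members, and in 58.5% of all tested genes. The median range was 1.58 over the 7 and 2.38 over all tested genes. Of the 28 pairs of members, 13 had a positive and 15 a negative Pearson correlation over the 6 libraries. Smarcb1 correlated with Arid1a by 0.956 and with Dpf2 by 0.931, and Smarcd1 with Smarcb1 by -0.933 and with Arid1a by -0.938. These are descriptions over 6 libraries in 3 pairs, in which members share depth and amplification.

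**Figure D3:**
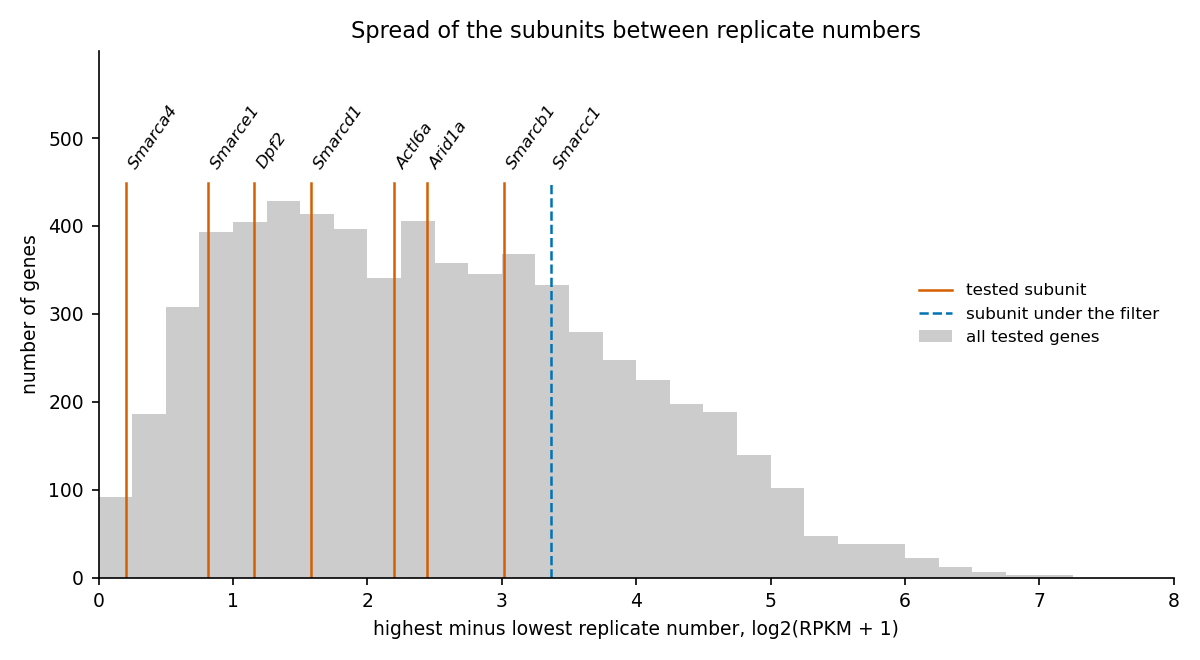
Histogram of the highest minus the lowest replicate number mean in log2(RPKM + 1) for all 6327 tested genes (grey bars, number of genes), with lines for the 7 tested subunits and a dashed line for Smarcc1, which was under the filter. Smarca4 lies near the low end at 0.21, and Smarcb1 and Smarcc1 lie to the right of the median of 2.38, at 3.02 and 3.37.

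Paralogues that can take the same position in the complex were compared within each library. For 3 of the subunits the stem cell form was the higher in 6 of 6 libraries, that is in both libraries of every number. Actl6a stood against Actl6b, the form of neurons after their last division, which had 0.0186 RPKM in tagmentation library 3 and was listed at 0 in the other 5 libraries. Dpf2 stood against Dpf1, a neuronal form, which had 0.230, 0.140 and 0.152 RPKM in tagmentation libraries 1 to 3, against 0.246, 0.978 and 1.93 RPKM in sonication libraries 1 to 3. Dpf1 was lower after tagmentation in 3 of 3 numbers, in number 1 by little (log2 difference on RPKM + 1 of -0.019). Of all tested genes, 33.8% had the same direction in all 3. Dpf1 rested on 11, 11 and 12 reads after tagmentation and 17, 49 and 83 after sonication, from libraries of unlike depth. It was under the filter and not tested. Arid1b, which excludes Arid1a from a complex, had 0.0336, 1.46 and 1.36 RPKM after tagmentation, against 0.0321, 1.02 and 0.717 RPKM after sonication. The median log2 difference on RPKM + 1 was 6.97 for Actl6a minus Actl6b, 3.75 for Dpf2 minus Dpf1 and 3.07 for Arid1a minus Arid1b. A pseudocount of 0.1 moved these to 10.3, 5.74 and 4.87. Smarca2, Smarcc2 and Dpf3, the paralogues of Smarca4, Smarcc1 and Dpf2, were not analysed here.

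The Smarcd position behaved otherwise. Smarcd2 (BAF60b), which is known for its role in blood cells, had 21.7, 67.5 and 1.98 RPKM in tagmentation libraries 1 to 3, against 24.5, 60.5 and 1.44 RPKM in sonication libraries 1 to 3. Smarcd3 (BAF60c), known from heart and neural development, was listed at 0 in number 1 of both methods, and had 26.7 and 18.6 RPKM in tagmentation libraries 2 and 3 and 29.1 and 20.2 RPKM in sonication libraries 2 and 3. In number 1, 3 reads of Smarcd3 would have given 0.0828 RPKM after tagmentation and 0.0574 RPKM after sonication. Of the summed RPKM of the 3 genes, Smarcd1 made up 35.1%, 19.2% and 25.6% after tagmentation and 40.3%, 19.4% and 22.5% after sonication. Smarcd2 made up 64.9%, 57.9% and 7.15% after tagmentation and 59.7%, 54.4% and 5.17% after sonication. Smarcd1 thus led in no library: Smarcd2 was the highest of the 3 in numbers 1 and 2, and Smarcd3 in number 3, in both methods. No gene length giving whole reads was found for Smarcd2, so its level and these shares may rest on an estimate. Neither paralogue was called between methods in either fit, with log2 fold changes of 0.089 (SE 1.47) for Smarcd2 and -0.076 (SE 1.75) for Smarcd3.

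**Figure D4:**
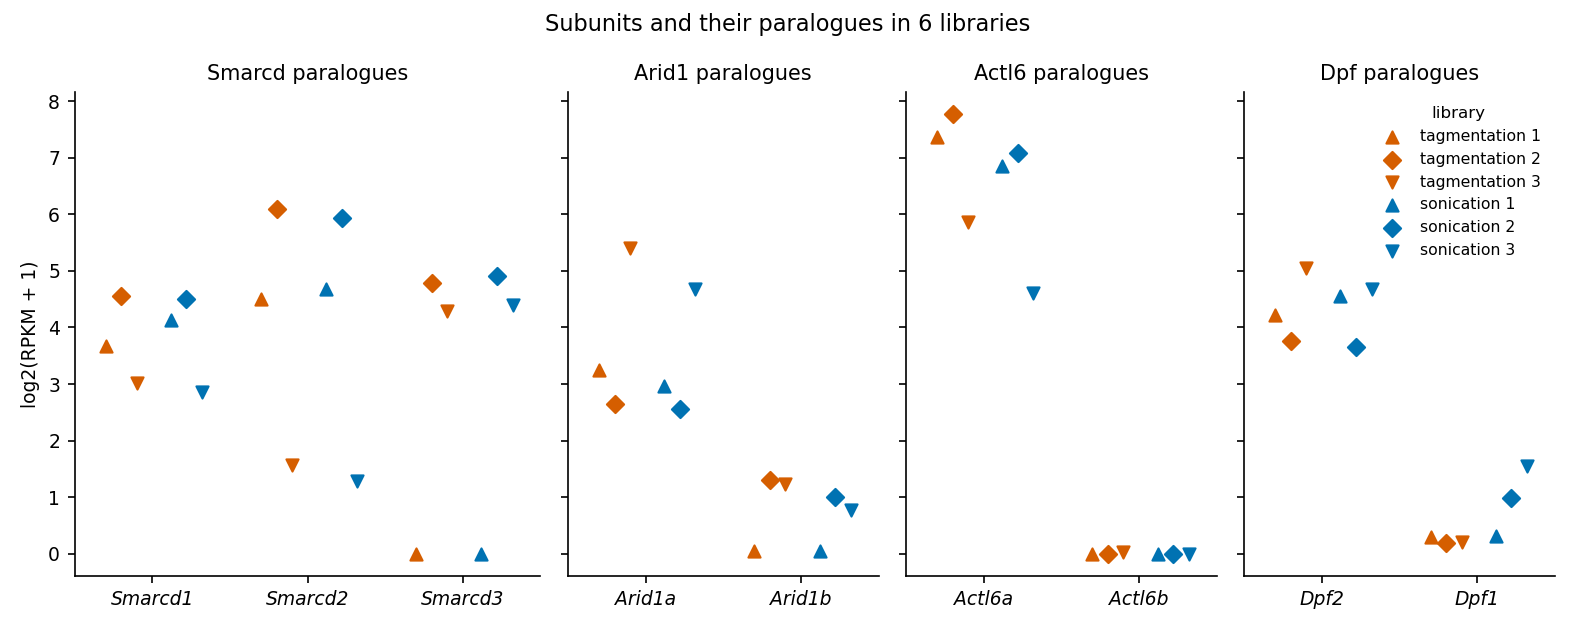
Level in log2(RPKM + 1) of Smarcd1, Arid1a, Actl6a and Dpf2 beside their paralogues in each library, with tagmentation (orange) left of sonication (blue) and a symbol for each replicate number. Actl6a, Arid1a and Dpf2 lie above their paralogues in 6 of 6 libraries, while the leading Smarcd gene is Smarcd2 in numbers 1 and 2 and Smarcd3 in number 3.

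The other subunits of BAF and its sister assemblies PBAF and ncBAF (20 genes listed, 16 with a row) gave 9 tested genes. By limma 0 of these were called between methods without the block and 0 with it, against 0% and 3.29% of all tested genes. At an unadjusted p under 0.05 there were also 0 in both fits, against 0.284% and 16.8% of all tested genes. By the F-test 8 of 9 differed between numbers, where 88.1% of all tested genes did. Their median log2 fold change was 0.23, with 7 above 0. The highest by mean were Smarcd2 (29.6 RPKM), Bcl7b and Brd7. Bcl7b, a small accessory subunit, had 16.5, 5.15 and 73.5 RPKM in tagmentation libraries 1 to 3, against 17.5, 3.63 and 56.4 RPKM in sonication libraries 1 to 3. As with Smarcb1 and Arid1a, its number 3 was the highest. Brd7, a bromodomain subunit of PBAF, had 28.6, 52.5 and 12.1 RPKM after tagmentation, against 26.5, 35.5 and 11.3 RPKM after sonication.

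Of the other subunits that define PBAF or ncBAF, Pbrm1, Arid2 and Brd9 were named after their values were seen. They varied with the number, and 88.1% of all tested genes differed between numbers by the F-test. Pbrm1, the polybromo subunit of PBAF, had 1.57, 0.395 and 0.0959 RPKM after tagmentation, against 1.21, 0.487 and 0.640 RPKM after sonication. Arid2, the ARID subunit of PBAF, had 5.32, 2.33 and 0.719 RPKM after tagmentation, against 3.56, 2.34 and 1.34 RPKM after sonication. Both were highest in number 1 and lower in number 3, in either method. Pbrm1 was under the filter and not tested. Brd9, the bromodomain subunit of ncBAF, was listed at 0 in number 1 of both methods, with 8.77 and 7.63 RPKM in tagmentation libraries 2 and 3 and 6.17 and 5.49 RPKM in sonication libraries 2 and 3. In number 1, 3 reads of Brd9 would have given 0.0593 RPKM after tagmentation and 0.0411 RPKM after sonication. Phf10, also of this list, did not vary in this way. It was listed at 0 in every tagmentation library and in sonication library 1. In sonication libraries 2 and 3 it had 3.52e-22 and 9.81e-45 RPKM, less than a read could give.

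Remodellers of the other families also showed no call between methods by limma, with or without the block. Of all tested genes 0% were called without the block and 3.29% with it. At an unadjusted p under 0.05 there were 0 of these remodellers without the block. With it there were 1 of the CHD list and 1 of the INO80, SRCAP and TIP60 list, against 16.8% of all tested genes. Of the ISWI list, which slides and spaces nucleosomes, 8 of 10 were tested, with 7 different between numbers and a median log2 fold change of 0.28. Beside this count and those of the lists below, 88.1% of all tested genes differed between numbers by the F-test. The highest were the small histone-fold subunits Pole3 (118 RPKM on average) and Chrac1 (64.0 RPKM). Smarca5, the ISWI ATPase of dividing cells, had 18.5, 0.255 and 0.0311 RPKM after tagmentation, against 13.6, 1.62 and 0.457 RPKM after sonication. It was chosen for naming after its values were seen, because it was highest in number 1 and lowest in number 3, as Smarcc1 was. Of the CHD list 3 of 9 were tested, all 3 different between numbers, with a median of 0.27. Chd4, the ATPase of the NuRD complex, averaged 29.1 RPKM, and Chd2 averaged 6.15 RPKM. Of the 17 rows of the INO80, SRCAP and TIP60 list 14 were tested, with 12 different between numbers and a median of -0.10. Ruvbl2 (171 RPKM) and Ruvbl1 (79.8 RPKM), the paired AAA+ ATPases of these complexes, were the highest.

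The genes whose levels were most like that of Smarca4 were found among 3913 other genes with a mean of at least 10 RPKM, by the Pearson correlation of log2(RPKM + 1) over the 6 libraries. They were Atp6v1f, a subunit of the vacuolar proton pump (r = 0.997), Aup1, a protein of lipid droplets and the endoplasmic reticulum (r = 0.961), and Tubb2c, a beta-tubulin (r = 0.948). Atp6v1f had 175, 248 and 232 RPKM in tagmentation libraries 1 to 3, against 286, 259 and 222 RPKM in sonication libraries 1 to 3. As with Smarca4, its highest and lowest libraries were both of number 1. No other member of the complex was among the 3, and the highest correlation of Smarca4 with a member was 0.471, with Smarcd1. Smarcc1 and Smarce1, with means of 3.45 and 3.57 RPKM, were under the required mean and could not be among the 3. The 3 were picked as the highest of 3913 correlations over 6 libraries that are not independent. Neither the size of r nor the absence of members was tested.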

How the data were processed

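RPKM values per gene were made by the authors and deposited as 1 table, with the alignments of each library in the file header. The submitters' processing notes list CASAVA 1.7.0 and Partek, and the genome build mm9, without saying what each was used for. How multiply mapped reads were handled, and with which gene models, is not stated there. Members were matched by symbol, and listed genes also through RefSeq synonyms. Members, lists and tests were chosen with earlier results of these data known.

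Values were tested as log2(RPKM + 1), which understates changes of low genes. The filter kept the 6327 genes that reached 1 RPKM in 3 or more of the 6 libraries, including 7 members. Testing used limma 3.58.1 (R 4.3.3; eBayes with a trend, two-sided, Benjamini-Hochberg over all tested genes, threshold 0.05), with method as the only term. Differences between numbers used the F-test with method and number. The script was tested on simulated data. Same-numbered libraries deviated together from their method's mean (r = 0.952, 0.969 and 0.934), so the numbers were taken as pairs, from the data and not from the labels, and the blocked fit stands beside the results.

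Read counts were recovered as the shortest gene length giving whole reads in all libraries above 0 (within 0.002 reads plus 1e-05 of the count), where fewer than 0.01 lengths would pass by accident. Among the members none was found for Smarca4 and Smarcb1, and some other listed genes, such as Smarcd2, also had none. The genes named were all members, the paralogues, every listed gene called between methods in either fit, the 3 other BAF genes and 2 genes of each other family with the highest mean, and the 3 genes most like Smarca4. Pbrm1, Arid2, Brd9, Phf10 and Smarca5 were added after their values were seen.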

Additional observations from a re-analysis of the deposited data

How the results depend on the processing

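Without the block, 0 genes and 0 members were called by limma under every scaling, pseudocount, filter and trend setting and without any 1 library (5 to 97 genes at an unadjusted p under 0.05). With the replicate block 208 genes were called, and 1051, 10 and 19 with the block and without number 1, 2 or 3. Members called were then 0 to 1 and other listed remodelling genes 0 to 1, namely Actl6a and Chd6, both without number 1. The blocked count also depended on the other settings, added after seeing the data: it was 0 with median-ratio scaling, 0 with no filter, 8 with a pseudocount of 0.1, 168 with one of 5, 168 with the mean filter, 204 without a trend and 476 with quantile normalization. Of 125 alternative values of the members' fold changes, 15 turned direction, none of them of Actl6a or Smarce1, and 2 became called. Dpf2 turned to -0.00025 with median-ratio scaling and -0.14 with quantile normalization. Leaving out 1 library moved Dpf2 between -0.31 and 0.34, Smarcb1 between -1.14 and 0.55, Smarcd1 between -0.57 and 0.27, Arid1a between -0.45 and 1.00 and Actl6a between 0.035 and 1.39. With the block and a number left out, Smarca4 ranged from -0.48 to 0.036, Smarcd1 from -0.21 to 0.10 and Dpf2 from -0.12 to 0.24. The cause was not tested.

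Between numbers, 3411 genes differed when a mean of 10 RPKM was required, where fewer genes were tested, and the count of members was 2 to 6 without each number. With a pseudocount of 0.1 the median difference was 4.87 for Arid1a minus Arid1b, 10.3 for Actl6a minus Actl6b and 5.74 for Dpf2 minus Dpf1, so their size depends on the pseudocount. Few reads limit the precision of Smarcc1 in number 3 (at most 9), Arid1b in number 1 (at most 11) and Dpf1 after tagmentation (at most 12). Tagmentation library 3, with 9 Smarcc1 reads, had 34681566 alignments, and tagmentation library 1, with 1377, had 21007424. The part of library depth in these counts was not tested.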
